A study of Homo sapiens with 4 samples.

Results

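Peak lists of a STARR-seq experiment were compared between cells that received SHP1705 alone and cells that received MG132 alone, 1 library each. A peak was a member when it lay on chromosomes 1 to 22 or X and was at least 355 bp wide, the widest minimum width among the 4 deposited lists. Members were thus chosen by their measured peak calls and widths, and the pairs below by their summit positions. These rules kept 71437 of 85840 SHP1705 peaks and 69343 of 69842 MG132 peaks on these chromosomes, so that 140780 members were taken of the 270743 peaks deposited in the 4 lists. The width limit removed 14403 SHP1705 and 499 MG132 peaks. At the limit, 316 SHP1705 and 508 MG132 peaks measured exactly 355 bp, and 306 and 499 were 1 bp narrower and left out.

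MDA-MB-231 is a human breast cancer line of mesenchymal, triple-negative type. Each culture was given a plasmid library of sheared DNA from the same line. The treatments were DMSO as the vehicle control, SHP1705 at 10 µM, MG132 at 100 nM, and both drugs together at these doses, with RNA taken after 8 h. Each treatment had 1 library, with no replicate culture, so a difference here is between libraries, carries no p-value, and cannot be told apart from differences between single preparations.

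In STARR-seq a genomic fragment sits in the transcribed part of a reporter plasmid, and an active fragment drives copies of its own sequence into reporter RNA, whose abundance reads out the fragment's enhancer activity. SHP1705 stabilises the cryptochromes, repressors that hold back CLOCK and BMAL1 at E-box sequences of clock genes and are themselves removed through the proteasome. MG132 blocks the proteasome, and in many cells this is known to induce heat shock, oxidative stress and unfolded protein genes.

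Promoters of 4 pathway genes show windows that a peak of 1 drug reached, and were chosen after their values were seen. Each sequence is the 250 bases before a start, from RefSeq on GRCh38.p14, with the motif in capitals. HSP90AB1, the constitutive cytosolic HSP90, on the plus strand at chr6:44247693-44247942, was covered under MG132 only, and carries 2 copies of the heat shock element, bound by HSF1, 165 and 112 bases before the start. ISG15, a ubiquitin-like interferon-induced protein, on the plus strand at chr1:1013247-1013496, and IFIT3, an interferon-induced antiviral protein, on the plus strand at chr10:89332279-89332528, were also covered under MG132 only and carry 2 copies each of the interferon-stimulated response element, bound by the factor ISGF3 (overlapping in ISG15, and on the opposite strand in IFIT3). PER1, on the minus strand at chr17:8152405-8152654, was reached under SHP1705 only, by a peak that covers 73 of the printed bases, and carries an E-box 173 bases before the start, outside that peak.
HSP90AB1: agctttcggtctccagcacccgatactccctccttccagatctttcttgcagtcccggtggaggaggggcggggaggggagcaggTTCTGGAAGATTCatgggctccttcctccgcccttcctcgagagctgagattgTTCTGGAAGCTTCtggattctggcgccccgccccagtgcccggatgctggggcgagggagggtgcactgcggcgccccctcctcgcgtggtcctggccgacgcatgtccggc
ISG15: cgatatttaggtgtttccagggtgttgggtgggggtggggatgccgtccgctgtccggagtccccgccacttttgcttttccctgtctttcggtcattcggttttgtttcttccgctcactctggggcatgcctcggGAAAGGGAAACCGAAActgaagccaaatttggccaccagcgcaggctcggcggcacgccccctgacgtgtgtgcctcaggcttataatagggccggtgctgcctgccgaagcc
IFIT3: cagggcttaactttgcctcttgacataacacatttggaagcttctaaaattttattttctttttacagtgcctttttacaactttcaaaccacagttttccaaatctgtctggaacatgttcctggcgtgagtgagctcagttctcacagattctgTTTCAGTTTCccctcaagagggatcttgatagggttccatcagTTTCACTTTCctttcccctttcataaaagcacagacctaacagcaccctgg
PER1: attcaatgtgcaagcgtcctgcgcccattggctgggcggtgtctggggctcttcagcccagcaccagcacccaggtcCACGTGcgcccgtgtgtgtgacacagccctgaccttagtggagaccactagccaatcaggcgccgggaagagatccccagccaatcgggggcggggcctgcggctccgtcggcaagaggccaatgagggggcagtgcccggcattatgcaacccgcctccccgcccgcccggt

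The SHP1705 library held 118324303 fragments and the MG132 library 27289266, a ratio of 4.34. DMSO held 29717604 and the combination 28331486. Heights are therefore given as fragments over the peak's summit (pileup) per 1000000 fragments of the library, abbreviated FPM. The lowest MG132 peak stood at 0.440 FPM, and 17.7% of the SHP1705 peaks were lower than any called in that shallower library.

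Most peaks of either drug had no counterpart in the other list. Of the SHP1705 peaks, 9053 overlapped an MG132 peak by at least 1 bp (12.7%, Wilson 95% interval 12.4 to 12.9), and 62384 did not. Of the MG132 peaks, 9099 overlapped a SHP1705 peak (13.1%, 12.9 to 13.4), and 60244 did not. These intervals cover counting error only, and since duplicate fragments were kept, the fragments are not independent molecules.

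The peaks held by 1 list only had different shapes. SHP1705-only peaks were low, with a median height of 0.845 FPM and a median fold over local background of 5.46, the authors' own value. MG132-only peaks had a median height of 5.39 FPM and a median fold of 19.9. The summit lay within 2 bp of the middle of the peak in 27.6% of SHP1705-only peaks and 61.6% of MG132-only peaks. Very wide peaks belonged almost entirely to SHP1705, where 4296 measured 2 kb or more, against 59 under MG132, 53 under DMSO and 47 under the combination. MG132-only peaks were thus more often narrow and centred, and SHP1705 peaks more often wide and off centre.

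Genes held far more of the SHP1705 peaks. Summits inside a protein-coding gene made up 61.3% of SHP1705-only peaks (60.9 to 61.7) and 39.5% of MG132-only peaks (39.1 to 39.9). The whole DMSO and combination lists stood at 37.0% and 38.1%, on the side of the whole MG132 list (39.3%). Summits in no annotated gene made up 26.7% of SHP1705-only and 47.1% of MG132-only peaks. Peaks held by both lists followed neither pattern: 53.2% of the shared SHP1705 peaks lay in no gene, and 42.5% fell in 1 Mb bins with no protein-coding gene at all, against 7.68% and 14.6% of the SHP1705-only and MG132-only peaks. Among chromosomes, the gene-dense chromosome 19 had the highest ratio of SHP1705-only to MG132-only peaks (1.74), and chromosome 18 had the lowest (0.823).

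**Figure D1:**
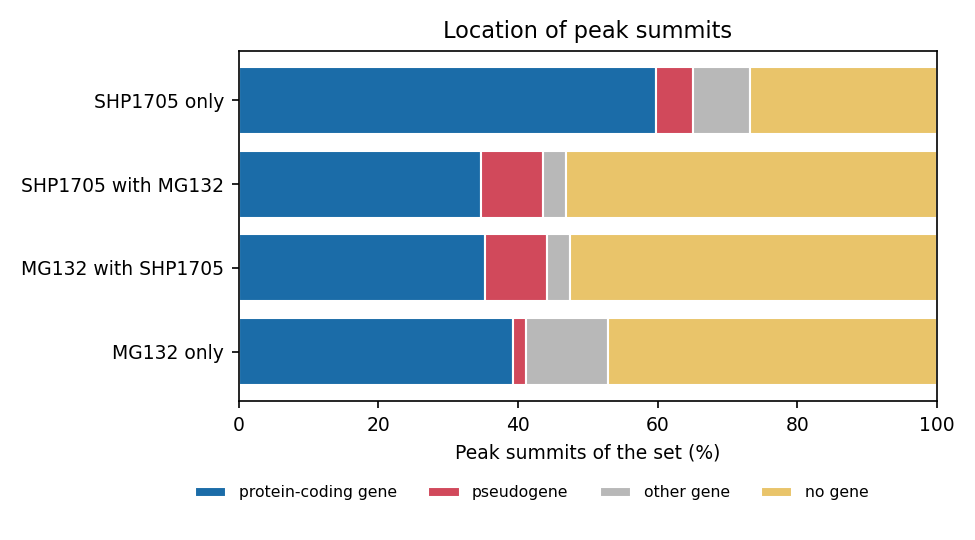
Share of peak summits, in percent, by where they fall in the RefSeq annotation, for peaks held by 1 list only and for peaks that overlap one of the other list. The protein-coding part is longest for SHP1705-only peaks, and pseudogenes take a larger part of the shared peaks (8.88% of the SHP1705 ones) than of the MG132-only peaks (1.93%).

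Gene ends held more of the SHP1705 peaks, and the 3′ end more so than the start. Within 1 kb of a gene start lay 4.94% of SHP1705-only summits and 0.938% of MG132-only summits. Within 1 kb of a 3′ end lay 7.18% and 0.802%, over genes whose strand was known. When each gene was divided into 10 equal parts, the last part held 25.9% of the SHP1705-only summits in genes (25.5 to 26.4, of 31497) and 8.91% of the MG132-only summits (8.52 to 9.32, of 19477). In the first part the shares were 12.4% and 9.69%. Shared SHP1705 peaks were the most skewed, with 41.8% in the last part. Over whole lists, shared peaks included, the last part held 27.2% of summits in genes under SHP1705 and 13.2% under MG132. Under DMSO and the combination it held 14.7% and 13.5%, so the whole MG132 list lay near these. MG132-only peaks, from which the shared peaks are left out, ran nearly flat along genes.

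**Figure D2:**
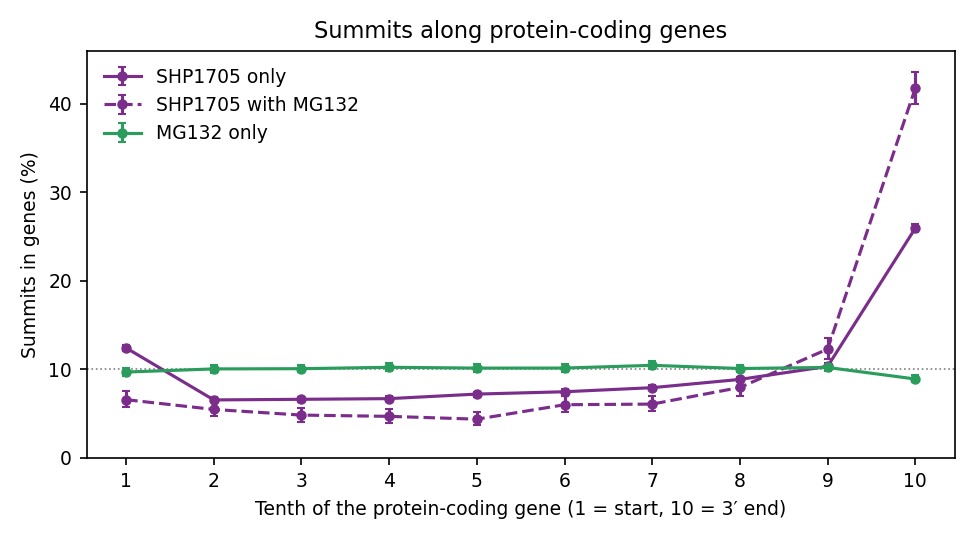
Percent of summits inside protein-coding genes that fall in each of 10 equal parts of the gene, from its start (1) to its 3′ end (10), with Wilson 95% intervals; the dotted line marks an even spread. SHP1705-only peaks reach 25.9% and shared SHP1705 peaks 41.8% in the last part, where MG132-only peaks stand at 8.91%.

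Pseudogenes, mostly copies of processed messenger RNA set back into the genome, carried 5.43% of SHP1705-only summits, 8.88% of shared SHP1705 summits and 1.93% of MG132-only summits. A pseudogene and its parent gene are near-identical in sequence, and how fragments that fit both were assigned is not given in the sources used here, so the place of such a peak is uncertain. The tallest SHP1705-only peaks, named by height, were of this kind. MTND2P28 and MTATP6P1, nuclear copies of mitochondrial genes on chromosome 1 at chr1:629651-630011 and chr1:633731-634196, reached 305 and 287 FPM. RPL28P3 and RPL41P1, copies of ribosomal protein genes, reached 272 and 232. The ferritin copy FTH1P2 reached 226, and the ribosomal protein copy RPL39P3 reached 195. The remaining pair of the 8 tallest lay in HSPA5, the endoplasmic reticulum chaperone BiP, at 193 and 192 FPM.

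The 8 tallest MG132-only peaks lay in no gene. The tallest, at chr1:125177349-125177721, stood at 644 FPM and its nearest protein-coding gene in the table was 3714542 bp away. The next, at chr5:49615407-49615897, stood at 534 FPM, and DMSO had 572 there. The other 6 ranged from 117 to 304 FPM on chromosomes 1, 10 and 16. Fold over local background was only 1.19 at the tallest and 2.74 at the next. All 8 lay below the median fold of 19.9 for MG132-only peaks, so they were tall without standing out from their surroundings more than other MG132-only peaks. DMSO also had 276 FPM where MG132 had 255, 256 where it had 124, 68.4 where it had 117 and 29.7 where it had 129. At the latter sites the combination had 97.4 and 89.8. On the SHP1705 side, DMSO had 16.3 at MTND2P28, 9.66 at RPL28P3 and 5.72 at FTH1P2, where the combination had 6.64. Sites far from genes were thus the tallest MG132 peaks without a SHP1705 peak. Pseudogenes and HSPA5 held the tallest SHP1705 peaks without an MG132 peak. Several of either kind were not particular to one drug.

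Peaks of one drug alone seldom recurred in the remaining libraries. A DMSO peak overlapped 4.10% of SHP1705-only and 6.0% of MG132-only peaks. A combination peak overlapped 4.66% and 7.10%. The combination received both drugs, and its list is also longer than that of DMSO (57174 against 45052 peaks). Peaks shared by SHP1705 and MG132 were different, as 45.9% of the shared SHP1705 peaks were present in both remaining lists.

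Heights were compared where a SHP1705 and an MG132 summit were each other's nearest and lay within 250 bp, which gave 6822 pairs. SHP1705 was at least 2-fold higher at 1794 of them, 26.3% of all pairs. MG132 was at least 2-fold higher at 4700, or 68.9%, and 328 pairs lay between these limits. The split depended on where the pair lay. On pseudogenes (671 pairs) the median log2 ratio of SHP1705 over MG132 was 4.69, and SHP1705 was at least 2-fold higher at 86.1%. In no gene (3806 pairs) the median was -3.32, and MG132 was at least 2-fold higher at 96.6%. In protein-coding genes (2114 pairs) the median was 3.82, between quartiles of -2.30 and 4.88, so that genes held a high and a low set with few pairs between.

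Within genes the ratio also differed by position under the main settings, but not under all others. Pairs within 1 kb of a 3′ end (624) had a median log2 ratio of 4.69, and those within 1 kb of a start (104) had 4.63. These were starts and ends of any coding gene of known strand, so a pair could count in both groups. Pairs farther than 1 kb from any coding gene end (1278) had -1.44, a direction that does not hold under 3 other settings. It was 1.29 after centring on the median of all pairs, 4.87 with peaks of at least 500 bp and 4.81 with a DMSO summit required. The median of all coding pairs was 4.87 with peaks of at least 500 bp and 4.83 with a DMSO summit. The inner pairs thus no longer stood apart under either of these settings. A single depth factor applied to every pair moves all of these values alike. Setting the median of all pairs to 0 raised each log2 ratio by 2.73, and then SHP1705 was at least 2-fold higher at 2401 pairs and MG132 at 1368, with medians of 6.55 in genes, 7.42 on pseudogenes and -0.59 in no gene. The distance between genes and the space outside them is the same on either scale, while which library is higher at a given pair, inside genes or outside, is relative to the depth scale chosen.

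**Figure D3:**
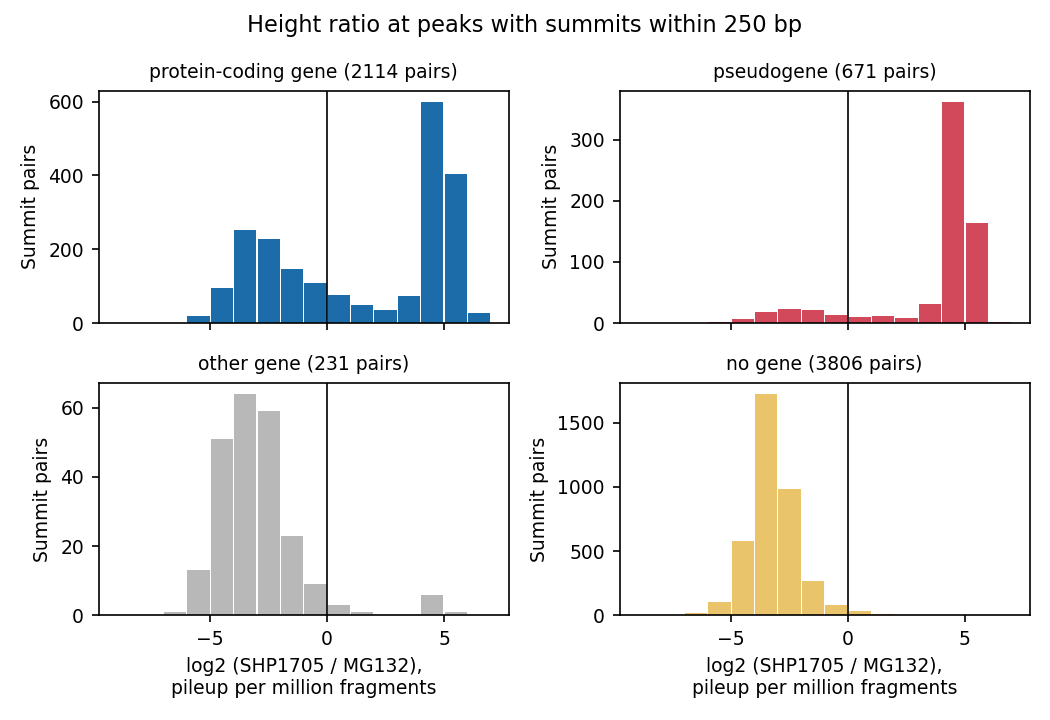
Number of summit pairs by the log2 ratio of SHP1705 to MG132 height (FPM), by location; right of the line at 0, SHP1705 is higher. Pseudogene pairs lie mostly near their median of 4.69, pairs in no gene near -3.32, and protein-coding genes hold both groups.

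The remaining libraries placed the departure on the SHP1705 side. At 589 coding pairs with a summit in all 4 libraries, the median height was 52.1 FPM under SHP1705, 1.87 under MG132, 1.68 under DMSO and 1.52 under the combination. At 404 such pairs on pseudogenes the medians were 90.3, 3.41, 3.21 and 2.96 in the same order. At 1810 such pairs in no gene they were 1.94, 19.8, 18.7 and 17.7. In each location the SHP1705 library stood alone, and MG132, DMSO and the combination lay close together. The combination culture also received SHP1705, yet its heights stood with those of DMSO.

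The relation between heights differed by location. Across the 3806 pairs in no gene, log2 heights under the 2 drugs had a Pearson correlation of 0.75, and across the 671 pairs on pseudogenes 0.32. Across the 2114 coding pairs, which hold both sets, it was -0.39. Over all 6822 pairs it was -0.18. The pseudogene pairs also hold both sets. Among pairs at least 2-fold higher under SHP1705 it was 0.89 on pseudogenes and 0.70 in coding genes. Among those at least 2-fold higher under MG132 it was 0.62 and 0.47. These sets were split by the ratio itself, which raises a correlation within them. These are descriptions across sites of the same pair of libraries, which differ in depth. The sites share genome and neighbouring sequence.

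Among pairs in protein-coding genes or on pseudogenes, those with the most extreme ratios were named, 8 in each direction and 1 per gene. Pairs in no gene reached a lower log2 ratio, -8.31, and were not named. On the SHP1705 side they were led by IGFBP4, a secreted protein that binds insulin-like growth factors. At its 5′ end, chr17:40443457-40444096, SHP1705 stood at 207 FPM, MG132 at 1.83, DMSO at 1.85 and the combination at 1.06, a log2 ratio of 6.82. CHI3L1, a secreted chitinase-like glycoprotein, stood at 93.7 under SHP1705, 0.843 under MG132 and 0.635 under the combination, with no DMSO summit. MMP2, a gelatinase that degrades extracellular matrix, stood at 273, 2.86, 3.06 and 1.84 in the order SHP1705, MG132, DMSO and combination. At all 3 genes only SHP1705 was high.

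LUM encodes lumican, a proteoglycan of collagen fibrils, and its heights in that order were 97.1, 1.10, 1.38 and 0.777 FPM. COL6A3, a chain of collagen VI, stood at 106 under SHP1705, 1.25 under MG132 and 1.28 under DMSO, with no summit under the combination. IGFBP5 had a log2 ratio of 6.37 and IGFBP2 one of 6.32, both relatives of IGFBP4. The pseudogene RPL13AP2 had 6.63. These genes encode secreted and matrix proteins, apart from the ribosomal copy.

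On the MG132 side the 8 named pairs lay in protein-coding genes, mostly far inside them. The most extreme of these was in C12orf75, at chr12:105342294-105342925, where MG132 stood at 19.0 FPM and SHP1705 at 0.245, a log2 ratio of -6.28. NCKAP5 stood at 21.3 under MG132, 0.338 under SHP1705 and 1.58 under DMSO, a log2 ratio of -5.98. MAD1L1, whose product acts in the spindle checkpoint, stood at 49.6 and 0.820, a log2 ratio of -5.92. The others were SYNPR, SYT16, MANBA, ZNF57 and CMYA5, from -5.84 to -5.63. The SHP1705 peaks of these pairs held 29 to 97 fragments at the summit, where the lowest kept SHP1705 peak held 28 (0.237 FPM). Some of these ratios thus rest on SHP1705 peaks near the floor of that list. At the pairs named on the SHP1705 side, MG132 peaks held 23 to 78 fragments, where the lowest kept held 12. Of the 8 on the MG132 side, only SYNPR had a combination summit, at 5.01 FPM, and only NCKAP5 and SYT16 had a DMSO summit. So the sites where MG132 exceeded SHP1705 most within genes were mostly absent from the remaining lists too, unlike the sites on the SHP1705 side.

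Genes with several pairs mostly went one way. Of 157 genes with at least 2 pairs inside, all pairs had SHP1705 at least 2-fold higher in 64, none had in 55, and 38 were mixed. After centring on the pair median these counts were 79, 36 and 42. COL6A3 had 7 of 7 pairs higher under SHP1705, with log2 ratios between 5.36 and 6.41. PTPRN2, a receptor-type phosphatase relative of secretory granules, had 5 pairs and none higher under SHP1705, with ratios between -2.91 and -0.88, and after centring on the pair median 4 of the 5 lay above 0. CSNK1D, a kinase that phosphorylates the PER clock proteins, was mixed, with 1 of 3 pairs higher under SHP1705. Pairs inside the same gene share their neighbourhood and were not treated as replicates.

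The gene lists were read against all 19974 protein-coding genes. A SHP1705 peak lay inside or within 1 kb of 77.4% of them and an MG132 peak of 54.6%. Genes with a SHP1705 peak and no MG132 peak made up 29.2%, and those with an MG132 peak only made up 6.34%. A gene's height ratio was taken at its tallest pair. Of 2359 genes with a pair, SHP1705 was at least 2-fold higher in 62.2% and MG132 in 29.6%, and the median log2 ratio was 4.35.

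The clock loop had peaks but few common sites, and summit pairs were uncommon over all protein-coding genes too (2359 of 19974). All 21 listed genes had a SHP1705 peak and 16 an MG132 peak. BHLHE40, a repressor of CLOCK and BMAL1 activity, was the only one with a summit pair, at 23.2 FPM under SHP1705, 1.14 under MG132, 1.38 under DMSO and 0.988 under the combination, a log2 ratio of 4.35, equal to the median of all genes. None of the 10 core genes PER1, PER2, PER3, CRY1, CRY2, NR1D1, NR1D2, DBP, BMAL1 and CLOCK had a pair, so the heights that follow are at different sites of a gene.

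Among the repressor genes, PER1 had 4 SHP1705 peaks with a tallest of 3.46 FPM, 1 MG132 peak of 1.61 and none in the remaining lists. PER2 had 3 SHP1705 peaks up to 1.06, no MG132 peak and a DMSO peak of 4.91. PER3 had 3 SHP1705 peaks up to 1.34 and 2 MG132 peaks up to 1.76, and its tallest was in DMSO at 11.1. CRY1 and CRY2 encode the cryptochromes. CRY1 had 6 SHP1705 peaks up to 3.85 and 3 MG132 peaks up to 3.37, with 13.0 under the combination. CRY2 had 3 SHP1705 peaks up to 5.70 and 1 MG132 peak of 8.79.

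The genes for the REV-ERB receptors, which repress BMAL1, differed more. NR1D1 had 3 SHP1705 peaks up to 10.6, no MG132 or DMSO peak and a combination peak of 12.8. NR1D2 had peaks only under SHP1705, up to 7.73. DBP, a clock output factor, had 2 SHP1705 peaks up to 6.58 and 1 MG132 peak of 3.15. Of the activators, BMAL1 had 4 SHP1705 peaks up to 9.31 and 5 MG132 peaks up to 13.9, and CLOCK had 7 SHP1705 peaks up to 3.17 and 1 MG132 peak of 11.1. Over the listed clock loop genes with a peak, the median tallest peak was 3.46 FPM under SHP1705 and 7.73 under MG132. Over all protein-coding genes with a peak these medians were 4.34 and 7.04, so the clock genes lay near typical heights. For PER3, CRY2, BMAL1 and CLOCK the taller peak was under MG132.

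Genes that set the turnover of clock proteins included both common and drug-specific sites. Of 17, SHP1705 had a peak at 16 and MG132 at 12, and among 6 with a pair SHP1705 was higher in 5. CSNK1A1, a casein kinase, stood at 74.4 under SHP1705 and 1.32 under MG132, and DDB1, an adaptor of a ubiquitin ligase, at 27.7 and 0.623. At its pair GSK3B went the other way on this scale, at 1.31 and 2.86, and turned (log2 ratio 1.60) when the pairs were centred on their median. The tallest GSK3B peaks, at other sites, were 9.10 under SHP1705 and 5.42 under MG132. The median log2 ratio over the list was 4.89.

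The target of MG132 itself was read through 36 proteasome subunit genes. SHP1705 had a peak at 34 and MG132 at 17, and 17 had a SHP1705 peak only, with none held by MG132 only. All 4 genes with a pair were higher under SHP1705, with a median log2 ratio of 4.63. PSMB5, a catalytic subunit inhibited by MG132, stood at 31.1 under SHP1705 and 1.32 under MG132. PSMD7 stood at 19.4 and 0.916, and PSMD8 at 21.9 and 0.843. The pair counted for PSMD14 lay on the pseudogene MXRA7P1 inside it.

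The stress lists known from proteasome inhibition are set here beside the median log2 ratio of 4.35 over all genes with a pair. Among 25 heat shock and chaperone genes, SHP1705 had a peak at 24 and MG132 at 19, and all 10 pairs were higher under SHP1705, with a median log2 ratio of 4.39. HSPA8, the constitutive HSP70 chaperone, stood at 202 under SHP1705, 5.31 under MG132, 5.55 under DMSO and 4.24 under the combination. HSP90AA1, the inducible cytosolic HSP90, stood at 233, 8.72, 7.37 and 8.37. In both genes only SHP1705 was high, and MG132 stood near DMSO and the combination. HSPB8's pair lay on the pseudogene PDAP1P1.

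Of 21 NRF2 antioxidant genes, SHP1705 had a peak at 19 and MG132 at 10. All 6 pairs were higher under SHP1705, with a median log2 ratio of 5.08. NQO1, a quinone reductase, stood at 60.1 under SHP1705 and 1.69 under MG132. SQSTM1, the autophagy receptor p62, stood at 138 and 3.48. HMOX1, haem oxygenase, had SHP1705 peaks up to 10.9 FPM and none under MG132, with 12.1 under DMSO and 11.6 under the combination. TXNRD1's pair lay on the pseudogene RPL18AP3.

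All 20 genes of ATF4 and the unfolded protein response had a SHP1705 peak and 13 had an MG132 peak. Of 7 pairs, 6 were higher under SHP1705, and SESN2 was near even at 9.85 and 8.50 FPM. CALR, the calcium-binding chaperone calreticulin, stood at 512 under SHP1705, 14.6 under MG132, 14.8 under DMSO and 12.6 under the combination. HSPA5 stood at 282, 9.23, 7.87 and 7.69. ATF4, the transcription factor of the pathway, stood at 130, 3.74, 3.77 and 3.39. SHP1705 was high at all 3 genes, and the other libraries differed little from one another.

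**Figure D4:**
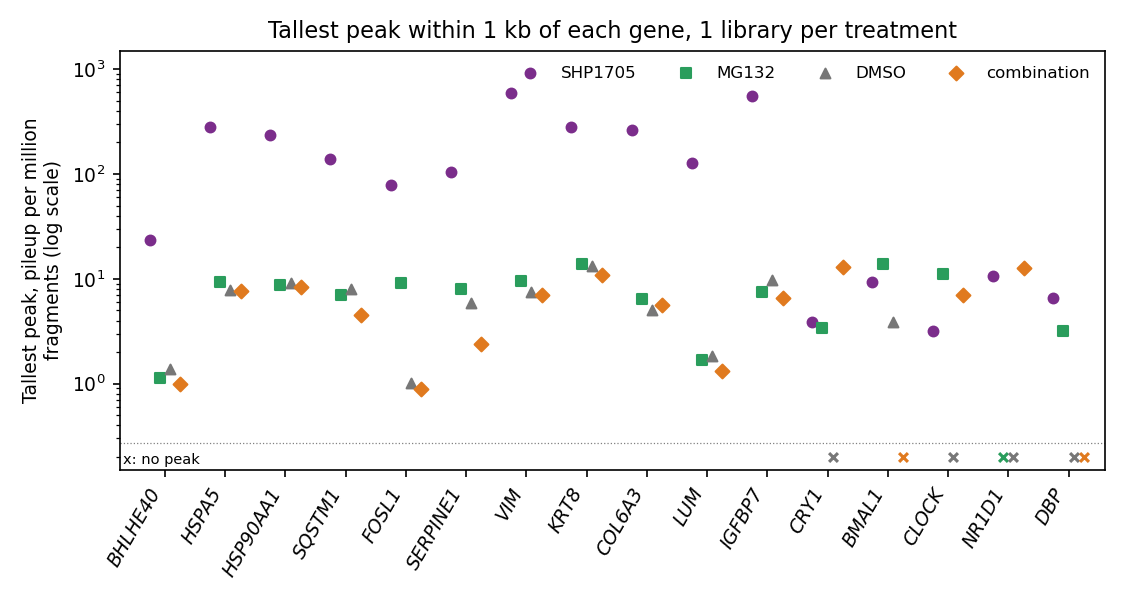
Tallest peak within 1 kb of each gene in each of the 4 libraries, in FPM on a log scale; crosses mark no peak. The first 11 genes stand high under SHP1705 only, while CRY1, BMAL1, CLOCK, NR1D1 and DBP show no such order; peaks of a gene in different libraries may lie at different sites.

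The AP-1 list had 23 of 23 genes with a SHP1705 peak and 12 with an MG132 peak, and all 6 pairs were higher under SHP1705. CCN1, a matricellular immediate early gene, stood at 363 and 6.19. FOS, a subunit of AP-1, stood at 6.47 and 0.843. Among 20 p53 target genes, 4 of 5 pairs were higher under SHP1705, with CDKN1A, the inhibitor of cyclin-dependent kinases p21, at 150 and 3.74. At its pair SESN1 was higher under MG132, at 0.727 and 4.58, and even (log2 0.072) after centring. The tallest SHP1705 peak of SESN1, at another site, was 5.08. In the interferon list SHP1705 had a peak at 22 of 24 genes and MG132 at 16. IRF9, a subunit of the interferon-activated factor ISGF3, stood at 5.85 under SHP1705 and 17.8 under MG132, a direction that turned (1.12) after centring. USP18, a negative regulator of interferon signalling, had a peak only under MG132, at 5.57 FPM, of the 4 libraries.

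Marker genes of several cell types were read in the same way, beside the all-gene median of 4.35. All 24 mesenchymal and basal breast genes had a SHP1705 peak and 21 an MG132 peak, and all 13 pairs were higher under SHP1705, with a median log2 ratio of 5.08. VIM, the intermediate filament of mesenchymal cells, stood at 589 under SHP1705, 9.64 under MG132, 7.44 under DMSO and 6.95 under the combination. Of these pairs, MMP1's lay on the pseudogene WTAPP1. The luminal list, for a cell type this line is not, had SHP1705 peaks at 20 of 22 genes and MG132 peaks at 18, and all 8 pairs were higher under SHP1705, with a median of 4.21, below that of all genes. The epithelial keratin gene KRT8 stood at 281, 13.9, 13.2 and 10.9. CDH1, E-cadherin, and EPCAM stood at 41.7 and 33.4 under SHP1705 and at 2.31 and 2.16 under MG132. ESR1, which defines luminal cells, had no pair, with tallest peaks of 2.99 under SHP1705 and 9.05 under MG132.

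Fibroblast and stromal genes, a list of 20 added after the values were seen, had a SHP1705 peak at 20 and an MG132 peak at 19. One of them, COL1A1, is also in the mesenchymal list. Of 16 pairs, 13 were higher under SHP1705 and 3 under MG132, with a median log2 ratio of 5.32. COL6A2 stood at 760 and 19.5, THY1, a surface marker of fibroblasts, at 263 and 6.19, PDGFRB at 102 and 2.49, and TCF21, a transcription factor of stromal precursors, at 98.3 and 1.43. At its pair FAP, the fibroblast activation protein, had 0.355 under SHP1705 and 3.44 under MG132. The pair of COL5A1 had 1.82 and 14.4. The pair of FBLN1, a matrix glycoprotein, had 0.676 and 2.09, which turned (1.10) after centring. At any site, the tallest peaks in that order were 3.30 and 3.96 for FAP, 76.8 and 22.98 for COL5A1, and 45.8 and 11.9 for FBLN1. Of 7 genes for IGF binding proteins, also added afterwards, all 5 pairs were higher under SHP1705, with a median of 5.78. The blood and liver list of 22 was mostly empty. SHP1705 had a peak at 9 and MG132 at 3, neither drug had one at ALB, APOA1, HBB, HBA1 or MS4A1, and the only pair was in LYZ, at 51.5 and 12.8. What part these marker genes have in the differences between the libraries was not tested.

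**Figure D5:**
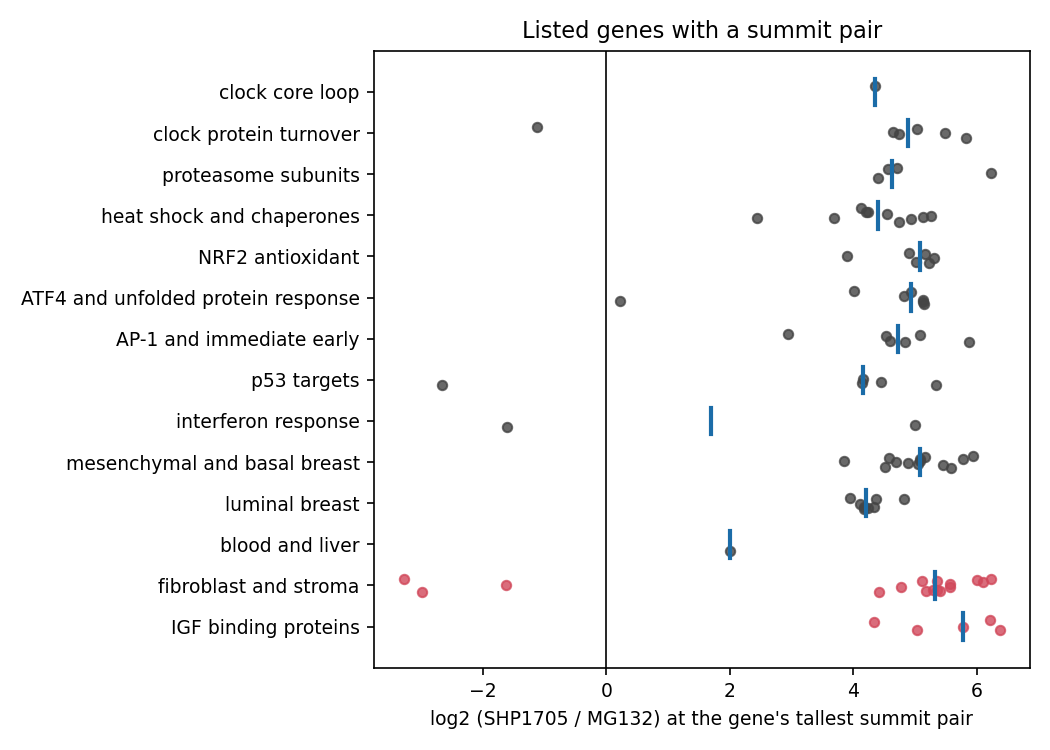
The log2 ratio of SHP1705 to MG132 height at the tallest summit pair of each listed gene, 1 point per gene, with the median of each list as a bar; lists added after the values were seen are in red. Most points lie between 4 and 6, beside a median of 4.35 over all genes with a pair.

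Gene starts were examined in 34961 promoter windows of 27195 genes, from 250 bases before to 50 bases after an annotated start. SHP1705 alone had a peak over 4314 windows, 12.3% of all, and MG132 alone over 521, or 1.49%. Both drugs had one over 169. SHP1705-only windows had a median GC content of 66.3% and MG132-only windows 54.3%, against 57.3% in windows with neither. The SHP1705 peaks mostly lay past the start. Their summit was before the start in 35.8% (34.4 to 37.2), against 58.6% under MG132 (54.8 to 62.2), 57.4% under DMSO and 59.0% under the combination. The peak covered none of the 250 upstream bases in 29.0% of SHP1705 windows and 10.1% of MG132 windows.

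Motifs of the pathways the drugs touch were counted as letters on both strands. The E-box CACGTG, bound by CLOCK and BMAL1, occurred in 8.32% of SHP1705-only windows (7.53 to 9.18), 9.02% of MG132-only windows (6.85 to 11.8) and 7.27% of all windows. The heat shock element, searched as TTC, GAA and TTC with any 2 bases between units, occurred in 10 of 4314 SHP1705-only windows (0.232%, 0.126 to 0.426), 5 of 521 MG132-only windows (0.960%, 0.411 to 2.23) and 0.489% of all windows. The AP-1 site TGANTCA occurred in 3.66%, 8.45% and 7.68%. The interferon-stimulated response element, searched as GAAA and GAAA with any 2 bases between and added after the values were seen, occurred in 2.69%, 5.18% and 3.58%. For the heat shock element the intervals of the SHP1705-only and MG132-only windows overlap, and the GC content of these windows also differs.

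In the promoters printed above, the MG132 peak at HSP90AB1 ran from 44247586 to 44248016 on chromosome 6, over both elements, with 386 fragments at its summit, or 14.1 FPM. None of the other 3 libraries had a peak of any width there, whereas at a pair elsewhere in the gene SHP1705 stood at 57.0 and MG132 at 3.08. HSP90AA1 had an MG132-only peak of 2.16 FPM over a promoter window whose element lay outside the peak. The MG132 peaks at ISG15 and IFIT3 stood at 3.96 and 7.15 FPM and covered the capitals, and SHP1705 had at IFIT3 a peak of 320 bp, under the width limit, at 0.296 FPM. Elsewhere in or near these genes SHP1705 had a peak of 19.7 FPM at ISG15 and of 8.87 at IFIT3, where the combination had 4.24. IFI6 was the remaining interferon gene with an MG132-only window, at 7.29 FPM, and DMSO reached 18.5 there. Outside that window IFI6 had a SHP1705 peak of 7.21. At PER1 the SHP1705 peak ran from 8152059 to 8152477 on chromosome 17 at 0.668 FPM, and the E-box lay outside it. Over all 27195 genes with a window, 1.79% had an MG132-only and 14.1% a SHP1705-only window. Of 17 interferon genes with a window these counts were 3 and 1, of 21 heat shock genes 2 and 8, and of 20 clock loop genes 0 and 5.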

How the data were processed

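The submitters' processing notes name Bowtie2, FastQC, Trimmomatic and MACS2, without versions, and the build hg38. Each library's peaks were called alone, per the file headers, by MACS 2.2.6 (q cutoff 0.01), with duplicates kept, no control library and a 10000 bp local background. The signal of a peak, deposited by the authors, is the unscaled pileup at its summit. The deposited −log10 p-value and −log10 q-value, and the ratio of pileup to background (fold), are the authors' and only describe peaks.

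From these, Python 3.11.15 (numpy 2.4.6, pandas 2.3.3, scipy 1.17.1) computed overlaps, pileup per 1000000 fragments (FPM), Wilson intervals and log2 ratios at mutual nearest summits, checked on simulated data. Genes came from RefSeq GRCh38.p14, whose table holds gene ends and no exons. Strand came from the promoter table for 79.2% of coding genes. Named by rule were the 8 largest ratios per direction among pairs in coding genes or on pseudogenes, 1 per gene, the 8 tallest unshared peaks per list, and up to 6 members per gene list. For the gene lists the text does not keep to this rule. Many members it describes were picked outside the rule with their values known, and some members named by the rule are not described. Of 276 listed memberships in 12 lists, 275 matched. All members, rules and lists were chosen with earlier results of these data known. The depth of each list limits the lowest callable height.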

Additional observations from a re-analysis of the deposited data

How the results depend on the processing

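In all, 1128 values were recomputed under 16 settings, and 8 changed sign. Counts and shares are among these values and cannot change sign. The median of coding pairs farther than 1 kb from any coding gene end came to 1.29 after centring, 4.87 with peaks of at least 500 bp and 4.81 with a DMSO summit required. After centring, FBLN1, GSK3B, IRF9 and SESN1 came to 1.10, 1.60, 1.12 and 0.072 (log2), and without pseudogene peaks the interferon median was -1.60. Of 730 ratios at named or listed pairs, 726 kept their sign. Without centring all 625 did, as these settings mostly keep or drop a pair and leave its heights unchanged. Centring raises every ratio and can turn only negative ones. The number of kept signs therefore says little about how stable the ratios are. With peaks of at least 500 bp, 24778 SHP1705-only, 7123 MG132-only, 3353 shared SHP1705 and 3382 shared MG132 peaks were left; 81.3% and 25.1% of the unshared ones lay in coding genes and 27.6% and 1.68% near gene ends. That setting gave 2417 pairs, 1084 at least 2-fold higher under SHP1705 and 1297 under MG132. Medians were 4.87 (coding), 4.79 (pseudogene) and -3.36 (no gene), and 64.8% and 14.5% of genes had a peak. With no width minimum, SHP1705-only shares were 59.3% in genes and 13.0% at ends, the coding and no-gene medians 2.61 and -3.35, and genes with a SHP1705 peak 79.5%. Without SHP1705 peaks below the lowest MG132 peak these shares were 64.6%, 16.6% and 74.7%. At equal list length the first 2 were 61.9% and 14.5%. Without pseudogene peaks they were 63.2% and 14.8%, with 40.1% of MG132-only summits in genes and 76.6% of genes with a SHP1705 peak. The coding median was 4.43 with summits within 100 bp and 1.42 within 500 bp. Centring on the pair median left 1368 pairs at least 2-fold higher under MG132 and medians of 6.55, 7.42 and -0.59. With a DMSO summit required, 3562 pairs remained, 2266 at least 2-fold higher under MG132, with medians of 4.83, 4.78 and -3.37. Within 10 kb, 86.7% and 71.4% of genes had a SHP1705 or MG132 peak. By summits, DMSO held 2.80% of SHP1705-only and 4.61% of MG132-only peaks, and the combination 3.20% and 5.49%. With no width minimum on those lists, DMSO held 4.33% and 6.23%. With the summit inside the promoter window, 579 SHP1705-only and 222 MG132-only windows were left, and 5.70% of the former held an E-box. No paired analysis was possible because each treatment had 1 library.

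With 1 library per drug, treatment and library preparation cannot be told apart. The SHP1705 library was 4.34 times deeper, and 17.7% of its peaks lay below the lowest MG132 peak.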
